A study of Homo sapiens with 9 samples.

Results

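The BCL2 family of apoptosis regulators was described here through 10 of its genes, out of 58395 genes listed in each deposited table: the anti-apoptotic BCL2L1, MCL1 and BCL2L2, the pore-forming effectors BAX and BAK1, and the BH3-only BID, BAD, BIK, BCL2L11 and PMAIP1. The RNA-seq libraries came from HCT116, an established human colon carcinoma line, and every one of the 9 came from cells carrying shSTBD1, a hairpin against the glycogen-binding protein STBD1. The 3 groups, with 3 libraries each described as biological replicates, carried the vector alone (plvx neo), a hairpin-resistant wild-type STBD1 (STBD1 WT) or the same construct with a tryptophan-to-cysteine change (STBD1 W203C) in the region that binds LC3-type proteins. All 3 were stable lines made by lentiviral delivery and drug selection. The promoter that drives the constructs, and whether a line is 1 clone, were not given in the sources used here, so what belongs to a construct and what belongs to a line cannot be told apart. The deposited tables are named with WT and W203C exchanged relative to the sample titles. Groups follow the titles, and if the table names were right instead, every direction between the constructs would turn around and their comparisons with plvx neo would swap.

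Proteins of this family decide whether the outer mitochondrial membrane is opened to release cytochrome c, the step that commits most cells to intrinsic apoptosis. BAX and BAK1 form the pore, BCL-XL (from BCL2L1), MCL1 and BCL-W (from BCL2L2) hold them in check, and BH3-only proteins either engage the effectors or occupy the groove of the anti-apoptotic proteins. Colon epithelium and colon carcinoma cells are known to depend on BCL-XL and MCL1 rather than on BCL2 itself. The 10 genes were listed by function, but the list was proposed with their expected counts and TPM in the same 3 groups in view, so in that sense the members were chosen by the values reported here. Their counts and fold changes are therefore given as a description, not as independent support for any direction.

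Total expected counts, the depth of a library as RSEM assigned it, ranged from 16.9 to 23.3 M, and the lowest expected count of any of the 10 genes in any library was 303, for BIK. Replicates differed by more than sampling noise in every pair, with a chi-square per gene of 2.12 to 3.87. STBD1 itself, against which the hairpin is directed and which both constructs restore, was 3.32-fold higher in STBD1 WT and 2.73-fold higher in STBD1 W203C than in plvx neo, and the read-through gene FAM47E-STBD1, which shares its sequence, was 16.6-fold and 13.7-fold higher. Against STBD1 WT, STBD1 W203C had 0.825-fold STBD1 (edgeR adjusted p = 0.00945) and 0.827-fold FAM47E-STBD1 (adjusted p = 0.00113). The STBD1 call was lost in 2 of 6 fits that left out 1 library. The part of this lower level in differences between the constructs was not tested. All 6 epithelial markers examined were expressed, with a summed TPM (transcripts per 1 M, a level scaled by transcript length) of 3920 to 4020 in plvx neo, against 3530 to 3670 with STBD1 WT and 3290 to 3560 with STBD1 W203C. Of the markers of other cell types, 4 of 5 fibroblast, 5 of 5 leukocyte and 4 of 4 endothelial genes stayed below 1 TPM in every library. The exception was COL1A1, at 12.6 to 21.6 TPM with overlap between the groups, whose count was 1.40-fold higher in STBD1 WT than in plvx neo (edgeR adjusted p = 9.11e-06) and 0.711-fold in STBD1 W203C against STBD1 WT (adjusted p = 9.07e-06). Its part in the values that follow was not tested.

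What the 10 genes share is a BH3 motif, the short helix through which family members bind one another. Its core, written as leucine or methionine, any 3 residues, glycine or serine, and aspartate, was searched for in the coding sequence of the MANE Select transcript of each gene (GENCODE v44, hg38) and was present in 10 of 10. The first residue was leucine in 9 genes, with methionine in BCL2L2, and the fifth was glycine in 9, with serine in BAD. Without the methionine and serine alternatives the pattern would have missed BCL2L2 and BAD. How often it occurs in other proteins was not counted, so 10 of 10 describes the pattern and is not a result about these genes. BID held 2 matches, of which the 1 with glycine was kept, and in each gene the 18 core bases lay within 1 coding exon. The coding strand is shown 5′ to 3′ for the gene with the highest F among the groups (BCL2L1), for MCL1, for the BH3-only genes that differed most (BIK, BCL2L11, PMAIP1) and for both departures from the common letters (BCL2L2, BAD). Capitals mark the core, with 15 bases on each side in lower case.
BCL2L1: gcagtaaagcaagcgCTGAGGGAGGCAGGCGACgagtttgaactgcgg
MCL1: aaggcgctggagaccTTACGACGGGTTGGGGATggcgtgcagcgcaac
BCL2L2: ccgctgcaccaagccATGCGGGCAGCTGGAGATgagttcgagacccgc
BAD: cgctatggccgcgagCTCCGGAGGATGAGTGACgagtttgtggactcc
BIK: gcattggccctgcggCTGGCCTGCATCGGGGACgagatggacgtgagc
BCL2L11: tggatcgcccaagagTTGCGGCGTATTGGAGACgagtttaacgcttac
PMAIP1: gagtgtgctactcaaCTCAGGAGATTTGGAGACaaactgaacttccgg
The core lies at chr20:31721934-31721951 (minus strand, residues 90 to 95 of 233) in BCL2L1, at chr1:150578877-150578894 (minus strand, residues 213 to 218 of 350) in MCL1 and at chr14:23307903-23307920 (plus strand, residues 46 to 51 of 193) in BCL2L2. In BAD it lies at chr11:64271634-64271651 (minus strand, residues 114 to 119 of 168), in BIK at chr22:43127716-43127733 (plus strand, residues 61 to 66 of 160), in BCL2L11 at chr2:111150103-111150120 (plus strand, residues 152 to 157 of 198) and in PMAIP1 at chr18:59902673-59902690 (plus strand, residues 29 to 34 of 54). PMAIP1 encodes the shortest protein of the 10, and its BH3 core falls in the second of 2 exons.

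The first comparison set STBD1 WT against plvx neo, both in cells carrying shSTBD1. Counts were compared with the edgeR quasi-likelihood test, and a gene was called changed at a Benjamini-Hochberg adjusted p below 0.05 over all genes tested. All 10 members passed the filter on low counts in each of the 3 comparisons. Between STBD1 WT and plvx neo, 6 of the 10 changed, with BIK, BCL2L11, PMAIP1, BAX and MCL1 higher (5) and BCL2L1 lower (1). Among all 15289 genes tested 27.8% changed, 13.9% higher and 13.9% lower, and 40.0% were free of overlap between the groups in normalised CPM (counts per 1 M, scaled by TMM), beside 6 of the 10 members (5 higher and 1 lower). The median log2 fold change was 0.10 over the members and 0.0061 over all genes tested.

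The second comparison set STBD1 W203C against STBD1 WT. Here 4 of the 10 members changed, with BID higher and BCL2L1, MCL1 and BIK lower. Of 15052 genes tested 27.9% changed, 14.5% higher and 13.4% lower. Groups did not overlap in normalised CPM for 6 members, 1 higher and 5 lower, where 41.1% of all genes did not overlap. The members' median log2 fold change was -0.053, beside -0.0078 over all genes.

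In the last comparison, STBD1 W203C against plvx neo, 5 of the 10 members changed, with BIK, BCL2L11, PMAIP1 and BAX higher and BCL2L1 lower. This was the comparison with the fewest changed genes, 5.70% of 15081, with 3.03% higher and 2.67% lower, and 23.6% of genes did not overlap in CPM, beside 5 members, 4 higher and 1 lower. The median was 0.063 over the members and -0.0031 over all genes. The 3 comparisons share libraries in pairs, so that their values for 1 gene are not independent of each other. The call for BCL2L1 in each comparison, and those for BIK and PMAIP1 in STBD1 WT against plvx neo, held in every alternative fit run, including those that left out 1 library. With a length-based scale (limma on log2(TPM + 1)), 3, 1 and 1 of the members were called in the 3 comparisons, and with an offset for effective length 4, 1 and 1.

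**Figure D1:**
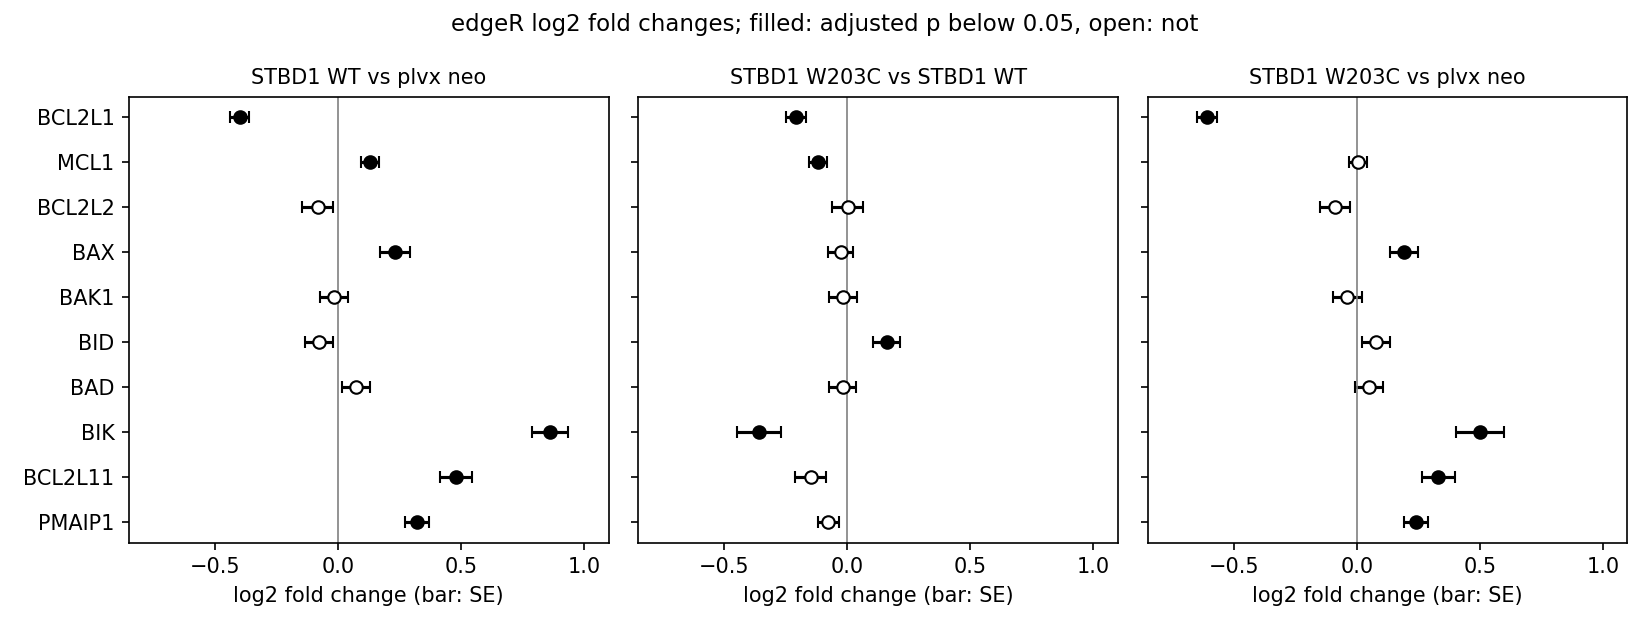
Log2 fold change of each of the 10 genes (x axis) in the 3 comparisons, with bars of 1 SE; filled points have a Benjamini-Hochberg adjusted p below 0.05 in edgeR and open points do not. BCL2L1 lies left of 0 in each panel, while BIK lies at 0.86 in the first, -0.36 in the second and 0.50 in the third.

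BCL2L1 had the highest F statistic over the 3 groups, which sets the size of the differences against their spread, at 125 in the fit of all 9 libraries against 44.3 for BIK, the next, and 0.246 for BAK1, the lowest. In fold change BIK differed more, by up to 0.86 on the log2 scale against -0.61 for BCL2L1. BCL2L1 (ENSG00000171552) spans chr20:31664452-31723989 on the minus strand (hg38) and encodes the anti-apoptotic BCL-XL, along with a shorter isoform of opposite effect that gene-level counts do not separate. Its normalised CPM was 209, 198 and 201 in the plvx neo libraries, 160, 154 and 150 in STBD1 WT and 132, 128 and 139 in STBD1 W203C. The 3 groups did not overlap, with plvx neo highest and STBD1 W203C lowest. The gene fell to 0.760-fold in STBD1 WT against plvx neo (log2 fold change -0.40 ± 0.039 SE, edgeR adjusted p = 2.51e-07) and to 0.654-fold in STBD1 W203C against plvx neo (-0.61 ± 0.0408, adjusted p = 3.14e-10). STBD1 W203C lay below STBD1 WT at 0.863-fold (-0.21 ± 0.0414, adjusted p = 0.000558), a difference that came to -0.12 (adjusted p = 0.0239) after correction for the GC content and length of genes. These were bulk samples, in which less RNA per cell and fewer cells that express a gene cannot be told apart. The summed TPM of the 6 epithelial markers was also higher in plvx neo than in either construct group, whose ranges overlapped, but the markers did not move together. KRT8 (log2 fold change -0.43) and KRT18 (-0.44) were lower in STBD1 WT than in plvx neo, while KRT19 (0.43) and CDH1 (0.27) were higher, and in all 2 of the 6 were higher and 3 lower. Their part in the level of BCL2L1 was not tested.

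The exons of BCL2L1 overlap those of ABALON, a noncoding RNA gene on the opposite strand, over 1735 bases, 41.34% of its own exonic sequence. Whether reads were counted by strand was not stated, so reads in the shared bases may have been assigned to either gene. ABALON was measured at 15.8, 13.2 and 15 CPM in plvx neo, 9.46, 9.12 and 10.2 in STBD1 WT, and 7.51, 6.85 and 6.24 in STBD1 W203C, the same order of groups as BCL2L1 and again without overlap. Its log2 fold changes were -0.62 in STBD1 WT against plvx neo, -0.47 between the constructs and -1.09 in STBD1 W203C against plvx neo, each called by edgeR. The call between the constructs was lost with limma on log2(TPM + 1) (adjusted p = 0.0634) and with the edgeR length offset (0.0559). ABALON held 6.73%, 5.85% and 4.92% of the CPM of both genes together in the 3 groups in that order. With the counts of both genes summed, the log2 fold changes were -0.41, -0.23 and -0.64 in the order of comparisons above, and each was still called.

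MCL1 (ENSG00000143384, chr1:150560895-150579738, minus strand) encodes a short-lived anti-apoptotic protein that binds BAK1 and several BH3-only proteins. It was measured at 282, 298 and 299 CPM in plvx neo, 318, 318 and 332 in STBD1 WT, and 293, 293 and 301 in STBD1 W203C. STBD1 WT stood above both other groups without overlap, and the plvx neo and STBD1 W203C libraries overlapped. MCL1 was 1.1-fold higher in STBD1 WT than in plvx neo (log2 fold change 0.13 ± 0.0376, edgeR adjusted p = 0.0123) and 0.920-fold in STBD1 W203C against STBD1 WT (-0.12 ± 0.0357, adjusted p = 0.0144). Between STBD1 W203C and plvx neo the value was 0.0061 ± 0.0366 (adjusted p = 0.959). The first call was lost without plvx neo replicate 1 (adjusted p = 0.0704) or STBD1 WT replicate 3 (0.0554), and the second without STBD1 WT replicate 3 (0.0698), STBD1 W203C replicate 1 (0.0754) or STBD1 W203C replicate 2 (0.068) and after GC correction (-0.071, adjusted p = 0.118). Both calls were lost with limma on log2(TPM + 1) (adjusted p = 0.155 and 0.185) and with the edgeR length offset (0.0662 and 0.0599).

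BCL2L2 (ENSG00000129473, chr14:23298790-23311751, plus strand), the gene of BCL-W, was not called in any comparison in the main edgeR fit. It was measured at 40.3, 37.4 and 40.8 CPM in plvx neo, 40.1, 35.4 and 36.9 in STBD1 WT, and 37.4, 36.3 and 38.1 in STBD1 W203C. All 3 groups overlapped, and the log2 fold changes were -0.083 ± 0.0635, 0.00063 ± 0.0631 and -0.088 ± 0.0609 in the order of comparisons above. It shares 815 exonic bases with the same-strand read-through gene BCL2L2-PABPN1. Summed with it, BCL2L2 had log2 fold changes of -0.095, -0.021 and -0.12, none of them called. After correction for the GC content and length of genes, BCL2L2 was called lower in STBD1 WT than in plvx neo (-0.17, edgeR adjusted p = 0.0372).

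**Figure D2:**
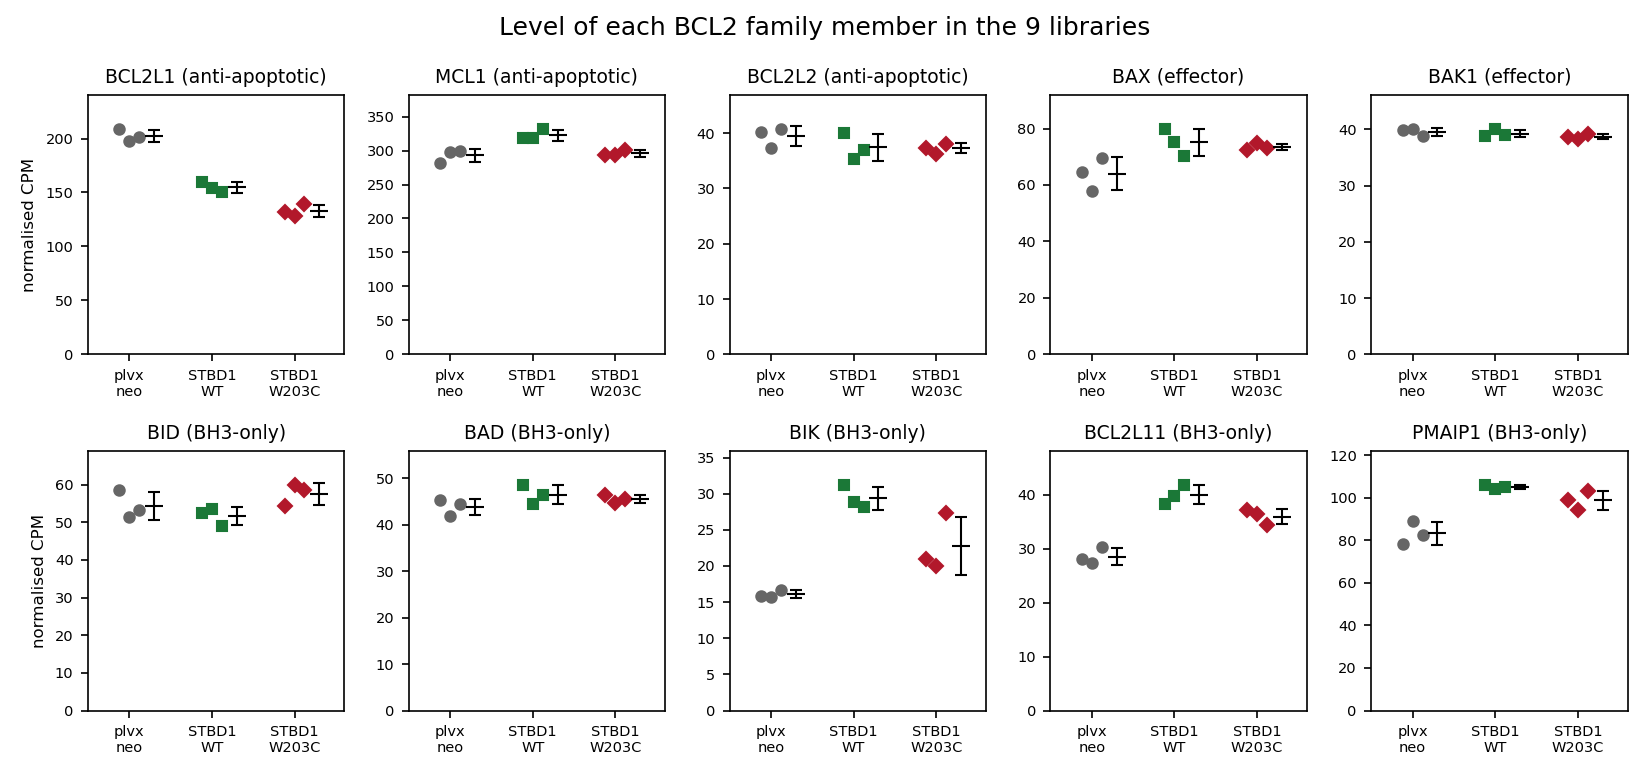
Normalised CPM (y axis, from 0) of each of the 10 genes in the 9 libraries, by group; points are libraries, horizontal lines group means and bars 1 SD (n = 3). BCL2L1 steps down from plvx neo to STBD1 WT (155 ± 4.92) and STBD1 W203C (133 ± 5.73), BIK is highest in STBD1 WT, and BAK1 lies between 38.2 and 40.1 throughout.

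The effectors BAX and BAK1, which oligomerise in the outer mitochondrial membrane, differed in how they varied. BAX (ENSG00000087088, chr19:48954815-48961798, plus strand) had 64.5, 58.0 and 69.5 CPM in plvx neo, 79.9, 75.2 and 70.4 in STBD1 WT, and 72.5, 74.8 and 73.1 in STBD1 W203C. Both construct groups lay above plvx neo without overlap in CPM, by a narrow margin of 69.5 against 70.4 for STBD1 WT. In TPM both overlapped plvx neo. The increase was 1.17-fold in STBD1 WT (log2 fold change 0.23 ± 0.0607, edgeR adjusted p = 0.00781) and 1.14-fold in STBD1 W203C (0.19 ± 0.0565, adjusted p = 0.0425), and the constructs differed from each other by -0.028 ± 0.0494 (adjusted p = 0.722). The call for STBD1 WT was lost without STBD1 WT replicate 1 (adjusted p = 0.0534), and its value was 0.13 after GC correction. The call for STBD1 W203C was lost in 5 of the 6 fits that left out 1 library, with DESeq2 (adjusted p = 0.0751) and with all 9 libraries in the fit (0.0502). For STBD1 WT and STBD1 W203C alike, the call was lost on the log2(TPM + 1) scale (limma adjusted p = 0.189 and 0.263). The same held with the offset for effective length (edgeR adjusted p = 0.167 and 0.384).

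BAK1 (ENSG00000030110, chr6:33572547-33580293, minus strand) was the steadiest of the 10. Libraries of plvx neo had 39.9, 40.1 and 38.8 CPM, those of STBD1 WT 38.8, 40 and 39.0, and those of STBD1 W203C 38.7, 38.2 and 39.1. The groups overlapped, and the log2 fold changes of -0.017 ± 0.0565, -0.017 ± 0.0574 and -0.039 ± 0.0582 were each smaller than their SE. Its annotated pseudogene copies BAK1P1 and BAK1P2 did not exceed 0.24 TPM in any library.

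The BH3-only genes held the largest increases. BIK (ENSG00000100290, chr22:43110750-43129712, plus strand) encodes a BH3-only protein of the endoplasmic reticulum and mitochondrial membranes. In plvx neo it was measured at 15.8, 15.7 and 16.7 CPM, in STBD1 WT at 31.2, 28.8 and 28.1, and in STBD1 W203C at 21.0, 20 and 27.3. None of the 3 groups overlapped, with STBD1 W203C between the others, and STBD1 W203C replicate 3 lay close to the lowest STBD1 WT library. BIK was 1.82-fold higher in STBD1 WT than in plvx neo (log2 fold change 0.86 ± 0.0729, edgeR adjusted p = 3.02e-08), 0.778-fold in STBD1 W203C against STBD1 WT (-0.36 ± 0.091, adjusted p = 0.00469) and 1.41-fold higher in STBD1 W203C than in plvx neo (0.50 ± 0.0972, adjusted p = 0.00215). Leaving out single libraries gave -0.51 to -0.28 for the constructs against each other, all called. On the log2(TPM + 1) scale the last 2 values, -0.34 and 0.51, were not called (limma adjusted p = 0.0743 and 0.0764). With the length offset those 2 were not called either (edgeR adjusted p = 0.0809 and 0.119).

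BCL2L11 (ENSG00000153094, chr2:111119378-111168444, plus strand) encodes BIM, a BH3-only protein that binds every anti-apoptotic member and can engage BAX directly. Its CPM was 28.0, 27.3 and 30.3 in plvx neo, 38.3, 39.8 and 41.8 in STBD1 WT, and 37.1, 36.4 and 34.4 in STBD1 W203C. Again the 3 groups did not overlap, and STBD1 WT was highest. The gene rose 1.40-fold in STBD1 WT (log2 fold change 0.48 ± 0.0644, edgeR adjusted p = 1.33e-05) and 1.26-fold in STBD1 W203C (0.33 ± 0.0669, adjusted p = 0.00303) against plvx neo, while the constructs differed by -0.15 ± 0.0614 (adjusted p = 0.0833). TPM varied more between libraries than CPM did, at 5.90, 6.52 and 9.01 in plvx neo, 15.4, 9.57 and 10.8 in STBD1 WT, and 11.9, 14.4 and 7.98 in STBD1 W203C, so that STBD1 W203C overlapped plvx neo. Neither call held on the log2(TPM + 1) scale (limma adjusted p = 0.0647 and 0.247). The STBD1 W203C call was also lost with the length offset (edgeR adjusted p = 0.212).

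The values of BCL2L11 moved when it was summed with a gene on the opposite strand. MIR4435-2HG, a noncoding RNA, shares 727 exonic bases with it, 10.78% of the exonic sequence of BCL2L11. It was measured at 17.8, 16.8 and 19.1 CPM in plvx neo, 10.1, 15.1 and 15.3 in STBD1 WT, and 12.2, 10.5 and 12.4 in STBD1 W203C, lower in each construct library than in any plvx neo library. It thus lay lower where BCL2L11 was higher, with log2 fold changes of -0.40 ± 0.114 and -0.62 ± 0.0934 in STBD1 WT and STBD1 W203C against plvx neo. The first of these calls was lost without STBD1 WT replicate 1 (-0.24, adjusted p = 0.0632) or plvx neo replicate 3 (-0.36, 0.0664), and both were lost with the length offset (0.151 and 0.0531). MIR4435-2HG made up 38.6% of the CPM of both genes in the vector line, against 25.1% for STBD1 WT and 24.6% for STBD1 W203C. With both genes summed, the log2 fold change was 0.20 (edgeR adjusted p = 0.0225) in STBD1 WT against plvx neo, -0.16 (0.0485) between the constructs and 0.033 (0.829) in STBD1 W203C against plvx neo, where the call for BCL2L11 alone was lost. Whether reads moved from 1 of these genes to the other was not tested.

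**Figure D3:**
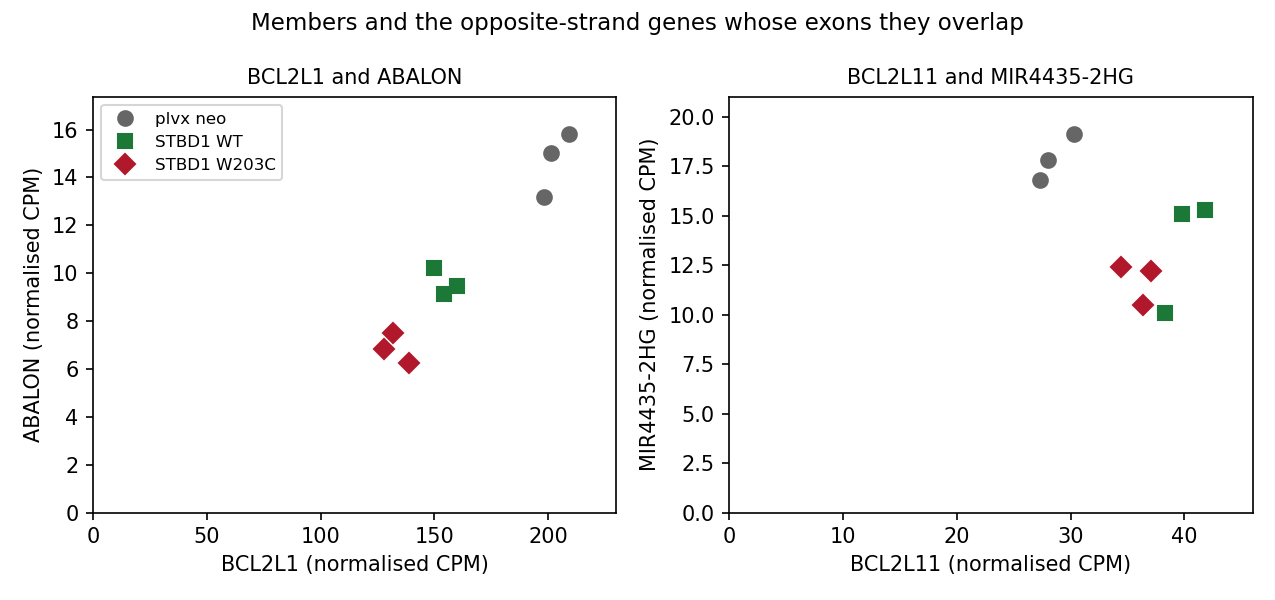
Normalised CPM of BCL2L1 against ABALON (left) and of BCL2L11 against MIR4435-2HG (right), 1 point per library, both axes from 0. BCL2L1 and ABALON are both lowest in STBD1 W203C and highest in plvx neo, whereas the plvx neo libraries are lowest for BCL2L11 and highest for MIR4435-2HG.

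PMAIP1 (ENSG00000141682, chr18:59899996-59904305, plus strand) encodes NOXA, a BH3-only protein that binds MCL1 and is a known target of p53. Its CPM was 78.5, 89.1 and 82.4 in plvx neo, 106, 104 and 105 in STBD1 WT, and 99.0, 94.4 and 103 in STBD1 W203C. Both construct groups lay above plvx neo, and every STBD1 WT library lay above every STBD1 W203C library. PMAIP1 was 1.25-fold higher in STBD1 WT (log2 fold change 0.32 ± 0.0483, edgeR adjusted p = 4.52e-05) and 1.18-fold higher in STBD1 W203C (0.24 ± 0.0506, adjusted p = 0.00423) than in plvx neo. The constructs differed by -0.078 ± 0.0426, which did not pass the threshold (adjusted p = 0.183), and on the log2(TPM + 1) scale the STBD1 W203C value of 0.29 was not called (limma adjusted p = 0.104). The STBD1 W203C call was also lost with the length offset (edgeR adjusted p = 0.123).

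BID (ENSG00000015475, chr22:17734138-17774770, minus strand) encodes the BH3-only protein that caspase-8 cleaves, which links death receptors to mitochondria. It was measured at 58.5, 51.5 and 53.2 CPM in plvx neo, 52.6, 53.5 and 49.1 in STBD1 WT, and 54.3, 59.9 and 58.6 in STBD1 W203C. STBD1 W203C lay above STBD1 WT without overlap, by 54.3 against 53.5 at the closest, and plvx neo overlapped both. BID was 1.12-fold higher in STBD1 W203C than in STBD1 WT (log2 fold change 0.16 ± 0.0544, edgeR adjusted p = 0.0332), the 1 member that rose between the constructs. That call was lost with DESeq2 (adjusted p = 0.0814) and without STBD1 WT replicate 3 (0.131), STBD1 W203C replicate 2 (0.128) or STBD1 W203C replicate 3 (0.086). It was also lost with limma on log2(TPM + 1) (adjusted p = 0.108) and with the edgeR length offset (0.317). Against plvx neo the values were -0.076 ± 0.0572 for STBD1 WT and 0.078 ± 0.0578 for STBD1 W203C, neither called.

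BAD (ENSG00000002330, chr11:64269830-64284704, minus strand) encodes a BH3-only protein regulated by survival-factor phosphorylation. Its CPM was 45.2, 41.9 and 44.4 in plvx neo, 48.5, 44.4 and 46.3 in STBD1 WT, and 46.3, 44.7 and 45.5 in STBD1 W203C. The groups overlapped, and none of its log2 fold changes (0.074 ± 0.0568, -0.02 ± 0.0556 and 0.049 ± 0.0567) was called. GPR137 on the opposite strand shares 404 of its exonic bases (23.65%), and summed with it BAD had log2 fold changes of 0.089, -0.009 and 0.074, again not called.

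Levels of different genes were compared as TPM, which takes transcript length into account. In plvx neo the order ran from BAX (112 ± 15.1 SD) and BCL2L1 (111 ± 1.27) through MCL1 (97.1 ± 6.72), BID (83.6 ± 6.69), BAD (70.3 ± 2.84) and PMAIP1 (53.2 ± 5.09) to BIK (23.9 ± 1.21), BAK1 (22.0 ± 0.592), BCL2L2 (13.6 ± 1.16) and BCL2L11 (7.14 ± 1.65). Among neighbours in this order, the libraries of BAX and BCL2L1 overlapped, and those of BIK and BAK1 met at 22.7 TPM. BCL2L1 came behind 2 others in STBD1 WT (87.4 ± 3.57), namely BAX (131 ± 13.3) and MCL1 (108 ± 4.99), and its libraries overlapped those of BID (84.2 ± 2.55). In STBD1 W203C it came behind 3 (76.4 ± 3.43), namely BAX (132 ± 9.23), MCL1 (99.9 ± 2.97) and BID (93.1 ± 5.12), and overlapped BAD (75.4 ± 2.53). From BAD downwards the order of mean levels was the same in the 3 groups, and the libraries of BCL2L2 and BCL2L11 overlapped in both construct groups. BIK, whose lowest plvx neo library met the highest of BAK1, stood at 44 ± 2.12 TPM in STBD1 WT and 34.8 ± 5.80 in STBD1 W203C. There BAK1 lay apart from it, at 21.7 ± 0.251 and 22.0 ± 0.0529.

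The balance between the anti-apoptotic genes differed between plvx neo and the constructs. The TPM of MCL1 divided by that of BCL2L1 was 0.814, 0.903 and 0.903 in plvx neo, 1.14, 1.22 and 1.33 in STBD1 WT, and 1.29, 1.41 and 1.23 in STBD1 W203C. BCL2L1 was the higher in every plvx neo library and MCL1 the higher in every construct library, while the construct groups overlapped. Of the summed TPM of the 10 genes, the 3 anti-apoptotic genes held 37.4% ± 1.5 in plvx neo, against 32.2% ± 0.961 with STBD1 WT and 30.5% ± 0.68 with STBD1 W203C (SD, n = 3), the 5 BH3-only genes 40.1% ± 0.569, 44.1% ± 0.584 and 44.8% ± 0.439, and the 2 effectors 22.5% ± 1.54, 23.6% ± 1.45 and 24.7% ± 1.12. The share of the anti-apoptotic genes was lower in every construct library than in any plvx neo library, and that of the BH3-only genes higher. BCL2L1 alone held 18.7%, 13.5% and 12.2% on average in plvx neo, STBD1 WT and STBD1 W203C. MCL1 held 16.4%, 16.7% and 16.0%, without a like fall. Shares of the same total are tied, so a lower share of BCL2L1 raises the others. Apart from shares, the mean summed TPM of the BH3-only genes was 238, 285 and 280 in the same order. All these values are of RNA and say nothing of protein.

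**Figure D4:**
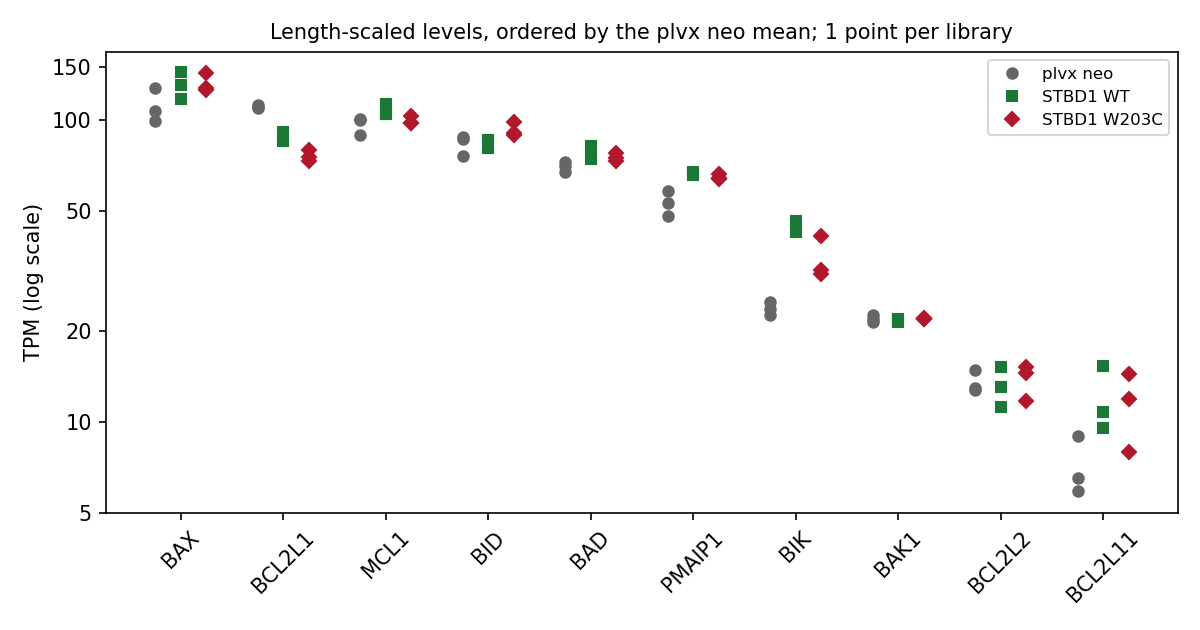
TPM (log scale) of the 10 genes in each library, in the order of their plvx neo means. BCL2L1 drops from 111 TPM in plvx neo, level with BAX, to 76.4 TPM in STBD1 W203C, level with BAD, and BIK lies at 23.9, 44 and 34.8 TPM on average in plvx neo, STBD1 WT and STBD1 W203C.

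A further 14 genes of the family were examined as a list, of which 11 passed the filter on low counts. BCL2A1, BCL2L10 and BCL2L14 did not pass in any comparison, and BCL2 itself stood at 1.09 ± 0.202 TPM in plvx neo. In STBD1 WT against plvx neo 4 were higher and 0 lower, with a median log2 fold change of 0.18, in STBD1 W203C against STBD1 WT 0 were higher and 4 lower (median -0.10), and in STBD1 W203C against plvx neo 1 was higher and 2 lower (median 0.0026). These counts of 4, 4 and 3 of 11 stand beside 27.8%, 27.9% and 5.70% of all genes called, and the medians beside 0.0061, -0.0078 and -0.0031 over all genes, which are also the background for the lists that follow. The same 4 genes made up the counts of the first and second comparisons: BBC3, BOK, BNIP3 and BNIP3L.

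BBC3 encodes PUMA, a BH3-only protein and known p53 target. It was measured at 17, 19.7 and 18.7 CPM in plvx neo, 32.6, 31.4 and 31.0 in STBD1 WT, and 23.7, 22.5 and 23.6 in STBD1 W203C. None of the groups overlapped and STBD1 W203C lay between the others, the same order as for BIK. The log2 fold change was 0.77 ± 0.0726 in STBD1 WT (edgeR adjusted p = 1.47e-07) and 0.32 ± 0.0788 in STBD1 W203C (adjusted p = 0.0135) against plvx neo, and -0.44 ± 0.0671 between the constructs (adjusted p = 4.84e-05). Leaving out single libraries ended the call of STBD1 W203C against plvx neo in 3 of 6 fits. It was also lost with limma on log2(TPM + 1) (adjusted p = 0.12) and with the edgeR length offset (0.201). BOK, an effector-like member, was higher in STBD1 WT than in plvx neo (0.33 ± 0.0589) and lower in STBD1 W203C than in STBD1 WT (-0.16 ± 0.0543), the latter a call lost in 4 of the 6 fits that left out 1 library and after GC correction (-0.029). That call was also lost with DESeq2 (adjusted p = 0.124) and limma on log2(TPM + 1) (0.254). In edgeR it was lost with a replicate block (0.0587) and the length offset (0.151).

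BNIP3 and BNIP3L encode outer-membrane proteins with a BH3-like stretch that act as receptors for the autophagy of mitochondria and are known to respond to hypoxia. BNIP3L was measured at 57.6, 57.9 and 59.8 CPM in plvx neo, 85.3, 84.6 and 78.5 in STBD1 WT, and 53.1, 51.4 and 51.0 in STBD1 W203C. For BNIP3 the values were 74.5, 71.1 and 73.7 in plvx neo, 93.6, 88.9 and 81.1 in STBD1 WT, and 55.2, 62.2 and 69.7 in STBD1 W203C. In both genes every STBD1 WT library lay above and every STBD1 W203C library below the plvx neo libraries. The log2 fold changes between the constructs were -0.67 ± 0.0491 for BNIP3L and -0.49 ± 0.065 for BNIP3. In STBD1 WT against plvx neo they were 0.50 and 0.26, and in STBD1 W203C against plvx neo -0.18 and -0.23, with that last pair of calls lost in 6 of 6 and 4 of 6 fits without single libraries. That pair was also lost with limma on log2(TPM + 1) and with the length offset, and the BNIP3L call with DESeq2.

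**Figure D5:**
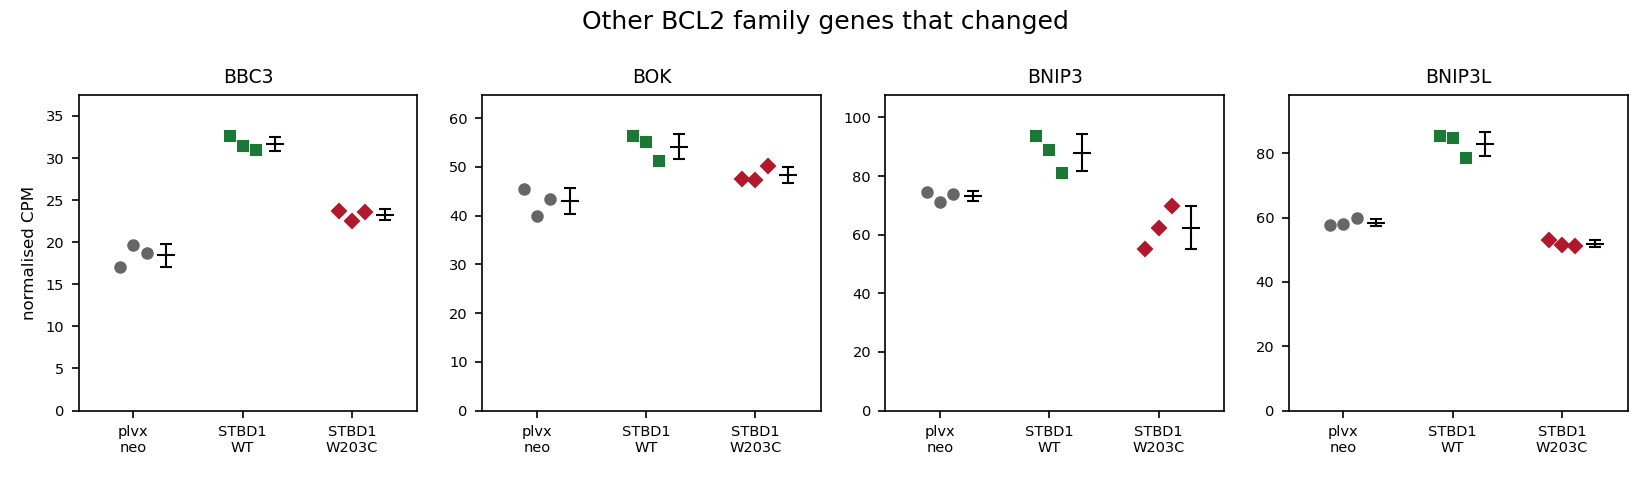
Normalised CPM (y axis, from 0) of the 4 other family genes that changed, by group; points are libraries, horizontal lines group means and bars 1 SD (n = 3). STBD1 WT is highest in each panel, and STBD1 W203C lies above plvx neo for BBC3 and BOK and below it for BNIP3 and BNIP3L.

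Downstream of the membrane pore, 14 genes of mitochondrial release and caspase activation were all tested. In STBD1 WT against plvx neo 1 was higher and 4 lower, in STBD1 W203C against STBD1 WT 4 were higher and 0 lower, and in STBD1 W203C against plvx neo 0 changed with edgeR, with medians of -0.087, 0.099 and -0.011. CYCS, the gene of cytochrome c, was lower in STBD1 WT than in plvx neo (log2 fold change -0.15 ± 0.0348) and higher in STBD1 W203C than in STBD1 WT (0.11 ± 0.0357), the latter a call lost in 3 of the 6 fits without single libraries. APAF1, the gene of the apoptosome scaffold, was higher in STBD1 WT than in plvx neo (0.19 ± 0.0671). The outer-membrane channel genes VDAC2 and VDAC3 were higher in STBD1 W203C than in STBD1 WT (0.11 ± 0.0382 and 0.13 ± 0.0441). These calls for APAF1, VDAC2 and VDAC3 were each lost in 4 of the 6 fits without single libraries.

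Upstream of BID, the death receptor list held 4 genes, all tested. In STBD1 WT against plvx neo 2 were higher and 0 lower, namely CASP10 (log2 fold change 0.58 ± 0.172), an initiator caspase gene, and CFLAR (0.32 ± 0.0665), whose product holds caspase-8 in check. With limma on log2(TPM + 1) neither was called, at 0.32 for CASP10 (adjusted p = 0.199) and 0.095 for CFLAR (0.659), nor with the length offset (0.17 and 0.565), and the call for CASP10 was also lost with DESeq2 (0.0578) and in 2 of the 6 fits without single libraries. CASP10 was lower in STBD1 W203C than in STBD1 WT (-0.64 ± 0.166), a call lost with limma (adjusted p = 0.119) and the length offset (0.0882), and in STBD1 W203C against plvx neo 0 of the 4 changed with edgeR. CASP10 was a low-level gene, at 3.64 ± 0.759 CPM in plvx neo, against 5.44 ± 0.347 with STBD1 WT and 3.49 ± 0.376 with STBD1 W203C. Of 5 genes that control MCL1 through ubiquitin, 0, 1 and 0 changed in the 3 comparisons. The 1 was HUWE1, a ubiquitin ligase of MCL1, at 0.11 ± 0.0387 in STBD1 W203C against STBD1 WT. The CPM of HUWE1 overlapped between these groups, and its call was lost in 4 of the 6 fits without single libraries and with limma on log2(TPM + 1) (0.026, adjusted p = 0.809), while its value turned to -0.013 with an offset for effective length. In STBD1 W203C against plvx neo, HUWE1 was called with DESeq2 (0.12, adjusted p = 0.0235) and after GC correction (0.13, edgeR adjusted p = 0.0114). A link between HUWE1 and the RNA of MCL1 was not tested.

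The genes whose profile over the 9 libraries was most like that of BCL2L1 were sought among 11308 genes averaging 5 CPM or more, by the root mean square distance between centred log2 CPM values. The nearest were LRRC20 (0.0646), SYTL3 (0.0863), EZR (0.0907), ANXA3 (0.0951) and CENPH (0.0989), where the median distance of all ranked genes was 0.276. As TPM, EZR stood at 597 ± 9.36 in plvx neo, against 492 ± 1.55 with STBD1 WT and 463 ± 4.13 with STBD1 W203C, and SYTL3 at 37.9 ± 1.11, 32.1 ± 0.944 and 28.2 ± 1.3. The likeness is a description over these libraries, which share their groups.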

How the data were processed

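RNA of 9 HCT116 libraries was sequenced as Illumina read pairs after TRIzol extraction and NEBNext Ultra library preparation. Per the methods and labels, the authors discarded low-quality, adapter-bearing and poly-N reads, aligned the others to hg38 with STAR 2.7.1a using Ensembl gene models and quantified with RSEM 1.3.1. The deposited tables hold RSEM expected counts per gene, which are fractional where reads were shared between genes. In plvx neo replicate 1, for example, BCL2L11 had 535.2 and BAD 864.8, beside 303 for BIK. Which genes shared those reads was not tested. The tables also hold the TPM values of the authors, scaled by effective length. Effective lengths from the same tables entered 1 alternative fit. Strand use in counting was not given in the sources used here. The study's own DESeq2 lists were not used.

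Symbols matched 57754 of 58395 gene identifiers (98.9%). Expected counts were rounded, filtered with filterByExpr, normalised by TMM and tested with the edgeR 4.0.16 quasi-likelihood F-test, two-sided, in R 4.3.3, on the 6 libraries of each comparison, with Benjamini-Hochberg adjustment over all genes tested. The code was tested on simulated counts. Each SE was the size of the log2 fold change divided by the square root of F. The study compared STBD1 WT with plvx neo and STBD1 W203C with STBD1 WT. The third comparison was added here. Normalised CPM used TMM factors over the 9 libraries. Intervals of counting error were not used, since replicate spread was larger. Alternatives were DESeq2 1.42.0, RLE normalisation, no filter, limma 3.58.1 on log2(TPM + 1), an effective length offset, all 9 libraries in 1 fit, a replicate block, leaving out each library, and, chosen after seeing the data, a GC and length correction and sums of overlapping genes.

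The members and gene lists were chosen with earlier results of these data known. The genes named were all 10 members, overlapping partners, other family genes that changed, up to 3 changed genes of each further list in each comparison, and the 5 genes most like the member with the largest F. A gene that this rule would name is not reported here. BH3 cores were read from GENCODE v44 coding sequences and hg38.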

Additional observations from a re-analysis of the deposited data

Results flagged for a closer look

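BNIP3 and BNIP3L, 2 mitophagy receptor genes of the wider family, lay above plvx neo in STBD1 WT and below it in STBD1 W203C, in every library, and were called by edgeR in opposite directions against the same vector libraries. The log2 fold change between the constructs was -0.49 for BNIP3 (edgeR adjusted p = 9.35e-06) and -0.67 for BNIP3L (adjusted p = 3.59e-09). The rule that flagged these genes required a call in every comparison, with opposite directions against plvx neo. The call between the constructs was thus part of the rule, and its direction follows from the other calls. It is given as a description, not as separate support. The side below plvx neo was the less stable, as the calls at -0.23 and -0.18 had adjusted p-values of 0.0227 and 0.0439 and were lost in 4 of 6 and 6 of 6 fits without single libraries. Both were also lost with limma on log2(TPM + 1) (adjusted p = 0.388 and 0.113) and with the edgeR length offset (0.3 and 0.0625). For BNIP3L the call was lost as well with DESeq2 (adjusted p = 0.124) and, in edgeR, with no filter (0.0512). None of the 10 members was called in opposite directions by the constructs against plvx neo.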

How the results depend on the processing

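The cause of each change below was not tested. With limma on log2(TPM + 1), all genes changed numbered 1751, 1828 and 131 in STBD1 WT against plvx neo, STBD1 W203C against STBD1 WT and STBD1 W203C against plvx neo, and members changed 3, 1 and 1. With the effective length offset all genes changed numbered 1907, 1582 and 119, and members changed 1 in each of the last 2 comparisons. Without single libraries, members changed ranged from 5 to 6, from 2 to 4 and from 4 to 5, and all genes changed from 459 to 818 in STBD1 W203C against plvx neo. The 2 was reached without STBD1 WT replicate 3 or STBD1 W203C replicate 2, and the 459 without plvx neo replicate 3. The GC and length correction moved the share of higher genes among those changed from 50% to 33.2%, from 51.8% to 69.1% and from 53.2% to 59.8%, and limma on TPM moved the last 2 to 68.8% and 74.0%.

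Same-numbered libraries of different groups did not deviate together (mean correlation of deviations 0.0139, against -0.00693 for different numbers), so the replicate block shares only a number. With the block, all genes changed numbered 4400, 3662 and 1003, members changed 6, 4 and 5, and BCL2L2 stood at -0.0015 between the constructs.

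Over the members' single log2 fold changes, 372 values from alternatives kept direction and side of the threshold, 38 lost the call, 2 gained it and 20 turned sign. Each turned value of a member was close to 0 and not called in the analysis reported. Values of members and of the other genes named that turned sign follow. In STBD1 WT against plvx neo these were BID at 0.013 (limma) and 0.012 (length offset), BAD at -0.058 (GC correction), GPR137 at -0.00081 and -0.014, and HUWE1 at -0.00047 (DESeq2), -0.044 (GC correction) and -0.027 to 0.035 without single libraries. Between the constructs they were BCL2L2 at -0.00046 (all 9 libraries), -0.021 (summed with BCL2L2-PABPN1) and -0.042 to 0.056 without single libraries, BAX at 0.017 (limma), 0.075 (GC correction) and -0.068 to 0.022, BAK1 at 0.019 and 0.087, BAD at 0.10 (GC correction) and -0.053 to 0.018, BCL2L2-PABPN1 at -0.22 to 0.024, GPR137 at -0.023 to 0.10 and HUWE1 at -0.013 (length offset), where HUWE1 had been called. In STBD1 W203C against plvx neo they were MCL1 at -0.022 to 0.022, BCL2L2 at 0.026 and BAK1 at 0.00031 (limma), APAF1 at -0.078 to 0.057, VDAC3 at -0.015 (length offset), VDAC2 at 0.031 (limma), 0.019 (GC correction) and -0.03 to 0.015, and CASP10 at -0.18 to 0.12.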
